A study of Homo sapiens with 6 samples.

Results

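The transcripts described here encode 10 receptor tyrosine kinases: the fibroblast growth factor receptors FGFR1, FGFR2, FGFR3 and FGFR4, the hepatocyte growth factor receptor MET and its relative MST1R, the insulin-like growth factor receptor IGF1R and the insulin receptor INSR, the ephrin receptor EPHA2, and the collagen receptor DDR1. They were taken by gene symbol from a table of 58735 genes, in which each symbol had a row. RNA sequencing was done on total RNA from T24, per the labels a line of human bladder cancer cells, with 3 libraries labelled sgOTUD1 (genotype given as OTUD1 knockout) and 3 labelled sgNC (empty vector, the negative control). Cells of all libraries were grown in the same serum-containing medium. The OTUD1 protein belongs to the OTU deubiquitinases. The labels give neither the guide sequence nor whether the sgOTUD1 cells are a single clone, and they do not say whether the replicates are separate cultures. The p-values thus set the group difference only against the variation between these libraries within a group, and that variation may be technical.

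Receptor tyrosine kinases are membrane proteins that bind a growth factor or matrix ligand outside the cell, pair up, and phosphorylate tyrosines on each other and on docking proteins inside it. The signal then runs mainly through the RAS-ERK and PI3K-AKT pathways, and the receptors are switched off by phosphatases and by ubiquitin ligases of the CBL family, which send them to the lysosome. In the bladder, FGFR3 is known for activating mutations and fusions in papillary urothelial tumours, whereas MET, MST1R, IGF1R, EPHA2 and DDR1 have been studied in the growth and invasion of urothelial cancer cells.

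Levels are given in FPKM, the deposited reads per kilobase of exon with a scale per library. The libraries hold between 16697370 and 17191933 reads assigned to genes. The scale recovered from the deposited values was 16237967 to 16654341 reads in sgOTUD1 and 17490559 to 17980830 in sgNC. It lay below the assigned reads of each sgOTUD1 library and above those of each sgNC library. Levels in sgOTUD1 are thus raised relative to assigned reads, and what set this scale is not given in the sources. Fold changes compare log2(FPKM + 1), sgOTUD1 over sgNC, which understates the change of genes at low level. A gene is called where the limma adjusted p was under 0.05 over the 14658 genes whose mean FPKM reached 0.5. OTUD1 itself was at 16.2, 17.9 and 17.1 FPKM in the libraries labelled sgOTUD1, against 13.9, 15.6 and 14.6 FPKM in sgNC (log2 fold change 0.20, SE 0.054, limma adjusted p = 0.0167, exact permutation p = 0.1). A lower level was not seen, so the transcript level does not show the knockout that the label gives (a short edit in the coding sequence can leave a transcript's level as it is). The edit itself could not be checked, and sgOTUD1 is used here as the label of these libraries. Of 10 urothelial and epithelial markers 9 were tested, 5 rose and 2 fell: KRT5 (1483 and 1195 FPKM in sgOTUD1 and sgNC) and EPCAM (91.6 and 68.1 FPKM) rose, while CDH1 (48.2 and 69.1 FPKM) and TP63 (36.0 and 41.2 FPKM) fell. Of 6 mesenchymal markers 4 were tested: VIM (48.2 and 33.7 FPKM), SNAI2 (21.1 and 15.7 FPKM) and TWIST1 (6.25 and 3.19 FPKM) rose and CDH2 (2.34 and 2.89 FPKM) fell, with ZEB1 under the filter at 0.026 and 0.046 FPKM. Of the epithelial markers, KRT14 (943 and 707 FPKM) and KRT19 (1318 and 1230 FPKM) were also at high level. UPK2 (1.89 and 1.45 FPKM) was low, and PPARG was under the filter (0.385 and 0.411 FPKM). Only the labels give the line's identity, and whether these marker levels match the named line was not tested. The 5 endothelial markers summed to 0.752 to 0.902 FPKM in sgOTUD1 and 2.57 to 2.75 FPKM in sgNC, the 6 leukocyte markers to 0.400 to 0.490 and 1.04 to 1.37 FPKM, and the 8 fibroblast markers to 7.15 to 7.32 and 9.50 to 10.1 FPKM. Among these lists the 4 genes tested all fell, namely CDH5 (0.644 FPKM in sgOTUD1 and 2.20 FPKM in sgNC), CSF1R (0.429 and 1.14 FPKM), COL1A1 (3.85 and 5.87 FPKM) and FAP (3.37 and 4.01 FPKM), while KDR, PTPRC, COL3A1, LUM and PDGFRB were at 0 in every library. Reads of the mitochondrial genome, a sign of RNA quality, made up 2.15% ± 0.077 of the sgOTUD1 reads and 4.01% ± 0.18 of the sgNC reads (SD, n = 3 each), and their part in the results was not tested.

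EPHA2 was the 1 receptor of the 10 that rose, to 2.03 times its sgNC level, and 6 fell: FGFR2, MET, MST1R, IGF1R, INSR and DDR1. FGFR1, FGFR3 and FGFR4 did not pass the test. All 10 genes were in the fit. Calls were common in this comparison, since 31.2% of all tested genes were called higher and 24.7% lower, or 55.9% in either direction. Of all calls, 55.9% were higher with the deposited scaling, 39.7% with median-ratio rescaling and 38.2% with TPM, which move the median of all genes by -0.10 and -0.13 on the log2 scale, and the 7 receptor calls kept their directions under both. For 7 of the 10 receptors the groups' values were fully apart, against 64.0% of all tested genes. The median log2 fold change was -0.28 over the 10 receptors and 0.03 over all tested genes. In these bulk libraries, a lower level in each cell and fewer cells with the transcript cannot be told apart.

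Promoters of 9 of the 10 genes were matched by symbol in RefSeq (build GRCh38.p14), as 250 bases before to 50 after the start used there, on the strand of the gene. That start can differ from the gene coordinates given below. The DDR1 window, chr6:30880720-30881019, lies inside the gene as given there (30876421 to 30900156, plus strand). Its values thus describe the RefSeq start only. They were rich in G and C, from 62.3% for DDR1 to 86.3% for FGFR3, against a median of 58.3% over 27305 promoters. The GC box GGGCGG, searched on both strands, was in 8 of the 9, DDR1 being the exception, and in 44.6% of all promoters. The TATA box TATAAA was in 0 of the 9 and in 12.0% of all promoters. Of 8 motifs searched, the cyclic AMP response element TGACGTCA was found in the promoter of EPHA2 alone, at bases -51 to -44 from the start, and in 1.98% of all promoters. Likewise, the E-box CACGTG was found in the promoter of MET alone, at bases 4 to 9 after the start, and in 7.43% of all promoters. The promoters of the receptor that rose, of the FGF receptor that fell and of an FGF receptor that did not pass the test are printed because these genes differ in response. Capitals mark the GC box, the CCAAT box (in 35.7% of all promoters) and the cyclic AMP response element on either strand, and GC boxes may overlap each other. EPHA2 lies at chr1:16156020-16156319 on the minus strand, FGFR2 at chr10:121598395-121598694 on the minus strand, and FGFR3 at chr4:1793043-1793342 on the plus strand.
EPHA2: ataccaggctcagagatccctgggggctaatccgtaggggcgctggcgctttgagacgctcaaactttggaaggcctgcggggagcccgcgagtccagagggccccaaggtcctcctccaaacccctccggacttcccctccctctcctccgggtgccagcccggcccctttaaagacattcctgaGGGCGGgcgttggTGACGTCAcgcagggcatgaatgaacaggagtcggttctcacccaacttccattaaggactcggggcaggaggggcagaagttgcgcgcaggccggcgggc
FGFR2: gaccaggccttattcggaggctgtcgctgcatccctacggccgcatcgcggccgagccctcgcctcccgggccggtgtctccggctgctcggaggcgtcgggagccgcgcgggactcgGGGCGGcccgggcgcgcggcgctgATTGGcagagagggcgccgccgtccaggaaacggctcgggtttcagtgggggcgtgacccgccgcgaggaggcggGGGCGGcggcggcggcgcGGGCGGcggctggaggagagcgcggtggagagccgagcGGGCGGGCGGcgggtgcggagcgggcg
FGFR3: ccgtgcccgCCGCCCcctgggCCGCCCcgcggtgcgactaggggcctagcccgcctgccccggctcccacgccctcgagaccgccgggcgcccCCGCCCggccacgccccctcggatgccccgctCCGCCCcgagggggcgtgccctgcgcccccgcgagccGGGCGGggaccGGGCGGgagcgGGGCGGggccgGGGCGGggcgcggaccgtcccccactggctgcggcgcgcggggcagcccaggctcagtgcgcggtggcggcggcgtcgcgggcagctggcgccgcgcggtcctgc
EPHA2 held 1 GC box beside its cyclic AMP response element, FGFR2 held 5 GC boxes and a CCAAT box, and FGFR3 held 8 GC boxes. A match of letters is a description of the sequence, and binding at these sites was not measured.

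**Figure D1:**
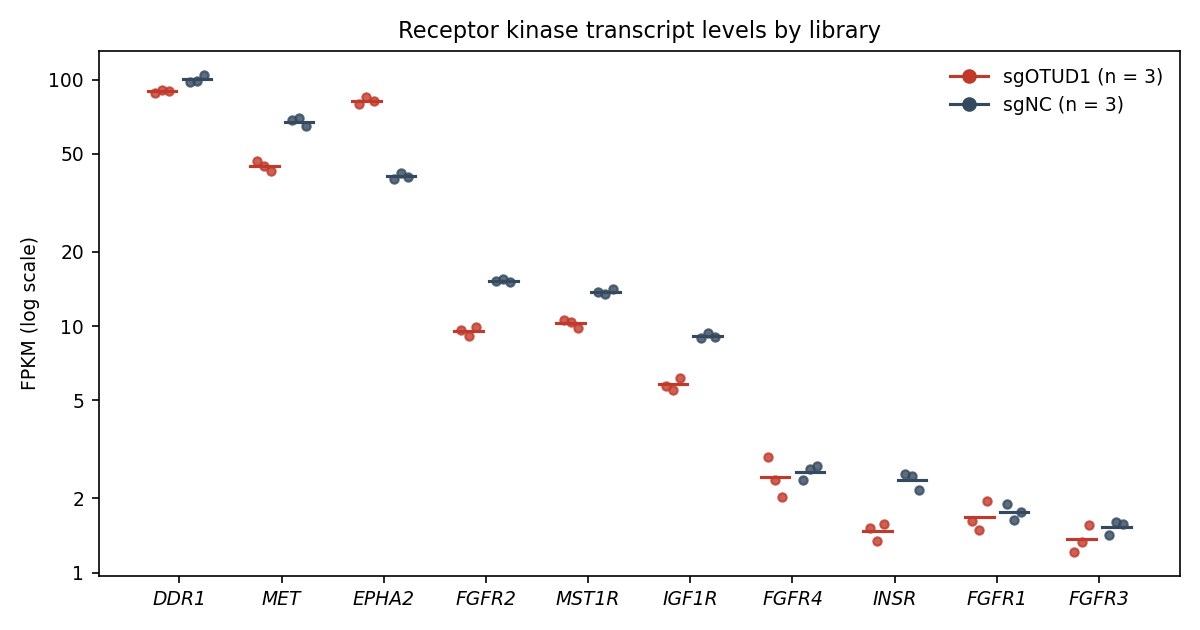
FPKM of the 10 receptor kinase genes in each library (points, log scale) with the group mean (bars), 3 libraries labelled sgOTUD1 and 3 labelled sgNC, ordered by the sgNC mean. EPHA2 is higher in all sgOTUD1 libraries than in any sgNC library, the groups of FGFR1, FGFR3 and FGFR4 overlap, and those of the other 6 genes lie lower in sgOTUD1.

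Fold change was related to exon length in these libraries, which bears on receptors because several have a large exon length. Exon length here counts all annotated exons of a gene, so it can exceed the length of any of its transcripts. Over 11372 nuclear protein-coding genes the log2 fold change fell by 0.15 for each doubling of exon length (Spearman's rho -0.38 across genes, which are not independent replicates). With these genes cut into 5 equal bins by exon length, the median log2 fold change was 0.26 in the bin of shortest genes and -0.17 in the bin of longest, from 8187 bases up. Exon length ran from 4159 bases for EPHA2 to 13941 bases for IGF1R, and IGF1R, FGFR1, INSR and DDR1 lie in the bin of longest genes. Removing a spline of exon length per library (the first length correction) left 1 receptor called higher and 5 lower, with 26.7% of all genes called higher and 27.5% lower. DDR1 was the receptor that lost its call, and a second way of removing the trend, estimated on genes of higher level, gave the same 1 and 5, with 21.7% of all genes called higher and 31.1% lower.

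**Figure D2:**
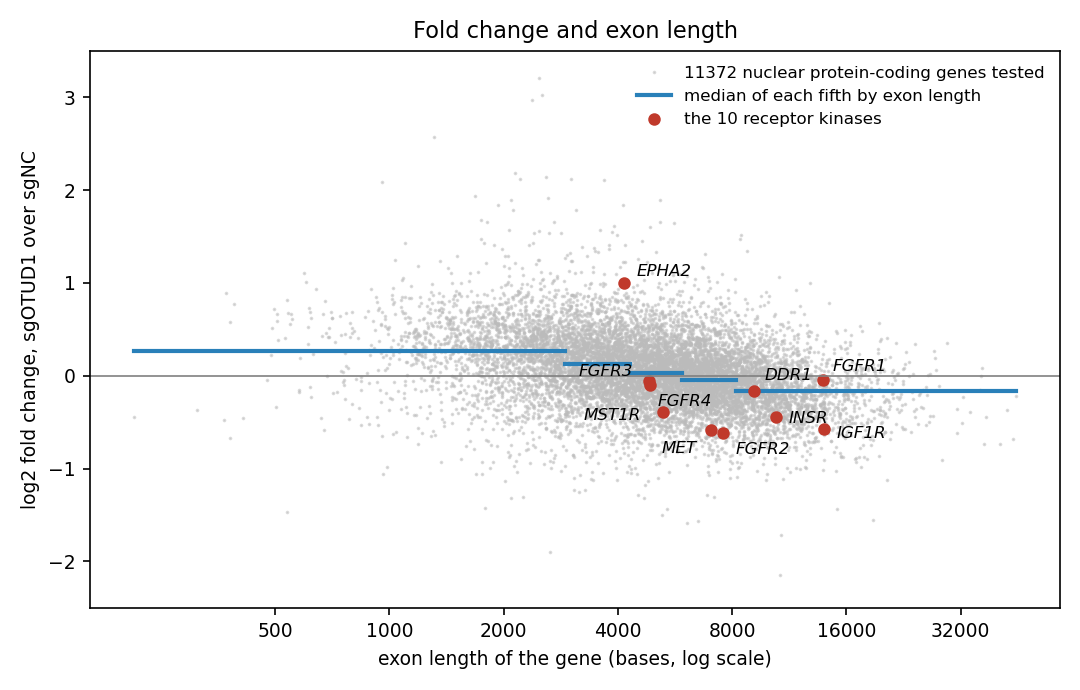
Log2 fold change (sgOTUD1 over sgNC) against exon length (bases, log scale) for 11372 nuclear protein-coding genes (grey), the median of each of 5 equal bins of these genes by exon length (blue lines, 0.26 in the bin of shortest genes and -0.17 in the bin of longest), and the 10 receptor kinases (red). EPHA2 lies far above the median of its bin, FGFR2, MET, MST1R, INSR and IGF1R lie below theirs, and DDR1 lies on it.

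Among the FGF receptors, only FGFR2 passed the test, and it was the main FGF receptor transcript of these cells. FGFR2 (ENSG00000066468, chromosome 10, 121478334 to 121598458, minus strand, hg38) was at 9.64, 9.15 and 9.93 FPKM in sgOTUD1, against 15.2, 15.4 and 15.1 FPKM in sgNC. All sgOTUD1 libraries were thus below all sgNC libraries, by more than the spread within either group. The log2 fold change was -0.62 (SE 0.041, limma adjusted p = 3.16e-05) and was -0.55 after the first length correction. On the log2(FPKM + 1) scale, 751 of the 14658 tested genes, or 5.12%, fell by as much or more. The gene has 27 annotated transcripts, and values per gene do not separate its epithelial and mesenchymal splice forms, which differ in the FGFs they bind.

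FGFR4, a receptor known for its response to FGF19 in the liver, was at 2.95, 2.37 and 2.03 FPKM in sgOTUD1 and 2.37, 2.63 and 2.70 FPKM in sgNC. Its sgOTUD1 values enclosed the whole sgNC range, and its 95% interval for the log2 fold change ran from -0.30 to 0.19. FGFR1, the main mesenchymal FGF receptor, was at 1.62, 1.49 and 1.94 FPKM in sgOTUD1 and 1.89, 1.63 and 1.76 FPKM in sgNC (interval -0.24 to 0.16). FGFR3 was at 1.21, 1.33 and 1.56 FPKM in sgOTUD1 and 1.42, 1.61 and 1.57 FPKM in sgNC (interval -0.29 to 0.096). On this scale a fall of the size seen for FGFR2 lies outside all 3 intervals. At the lower level of these 3 genes, the same proportional fall gives a smaller value on this scale, and that was not compared. FGFR3 had the fewest reads of the 10 receptors, at 98 to 124 reads per library in sgOTUD1 and 122 to 140 in sgNC. In a limma fit the adjusted p was 0.668 for FGFR4, 0.695 for FGFR1 and 0.348 for FGFR3. FGFR1 (chromosome 8) shares 156 exon bases with an antisense gene and 138 with LETM2 on the opposite strand, and whether reads were counted by strand is not stated in the labels.

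The summed FPKM of the 4 FGF receptors was 15.1 ± 0.63 in sgOTUD1 and 21.1 ± 0.21 in sgNC (SD, n = 3 each). FGFR2 made up 62.5%, 63.8% and 64.2% of that sum in sgOTUD1, against 72.8%, 72.5% and 71.5% in sgNC. The two-sided exact permutation p of the share was 0.1, the smallest that 3 against 3 libraries allow.

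Ligands of these receptors were scarce in both groups. Of 31 genes for FGF ligands, co-receptors and binding proteins, 4 had a mean FPKM of at least 0.5, and 12 were at 0 in every library. FGF11, an intracellular FGF homologue that is not known to act through these receptors, was the 1 FGF gene tested, at 0.493 FPKM in sgOTUD1 and 0.574 FPKM in sgNC (limma adjusted p = 0.534). FGF1, a ligand of all 4 receptors, was under the filter at 0.292 and 0.687 FPKM. FGFBP1, a secreted carrier that releases FGFs from the matrix, rose to 27.7 ± 1.1 FPKM in sgOTUD1, against 21.6 ± 1.4 FPKM in sgNC (SD, n = 3 each; log2 fold change 0.35, limma adjusted p = 0.0016). That call ended with the first length correction (0.051, limma adjusted p = 0.538). FGFRL1, a receptor relative without a kinase domain, fell to 3.13 FPKM in sgOTUD1, against 4.28 FPKM in sgNC (limma adjusted p = 0.0019).

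Both receptors of the MET family fell. MET (ENSG00000105976, chromosome 7, 116672390 to 116798386, plus strand), which drives cell scattering and invasion when bound by hepatocyte growth factor, was at 46.9, 44.8 and 42.4 FPKM in sgOTUD1, against 68.2, 69.5 and 64.9 FPKM in sgNC. The groups were well apart. The log2 fold change was -0.59 (SE 0.047, limma adjusted p = 6.67e-05), from 4885 to 5497 reads per library in sgOTUD1 and 7986 to 8797 in sgNC. MST1R (ENSG00000164078, chromosome 3, 49887002 to 49903873, minus strand), also called RON, the receptor of macrophage-stimulating protein, was at 10.6, 10.4 and 9.85 FPKM in sgOTUD1 and 13.7, 13.5 and 14.2 FPKM in sgNC. Its groups did not overlap either, and its log2 fold change was -0.39 (SE 0.043, limma adjusted p = 0.000264). Both calls held after the first length correction, at -0.53 for MET and -0.41 for MST1R. The ratio of MET to MST1R FPKM was 4.34 ± 0.064 in sgOTUD1 and 4.90 ± 0.29 in sgNC (SD, n = 3 each, exact permutation p = 0.1, the smallest possible). Antisense genes share 6.23% and 0.552% of the MST1R exon bases, at mean levels of 0.123 and 0.189 FPKM.

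HGF, the ligand of MET, was at 0 in every library, and MST1, the ligand of MST1R, was at 0.189 FPKM in sgOTUD1 and 0.203 FPKM in sgNC. Of 15 genes for these ligands, the proteases that activate them, their inhibitors and partners of the receptors, 10 were tested, 4 rose and 4 fell, and the median log2 fold change was 0.034, close to the 0.03 of all genes. SPINT2, an inhibitor of the proteases that activate HGF, rose to 127 ± 6.1 FPKM in sgOTUD1, against 86.3 ± 3.6 FPKM in sgNC (SD, n = 3 each; log2 fold change 0.55, limma adjusted p = 9.52e-05). PRSS8, or prostasin, an epithelial membrane protease, rose to 58.0 FPKM, against 34.1 FPKM in sgNC. ST14, or matriptase, a protease that cleaves pro-HGF, fell to 32.1 FPKM, against 37.0 FPKM in sgNC. The plexins PLXNB2 (199 FPKM in sgOTUD1 and 249 FPKM in sgNC) and PLXNB1 (7.86 and 9.67 FPKM), semaphorin receptors of the family that pairs with MET, fell. RANBP9, a scaffold protein that binds MET, rose to 16.3 FPKM, against 13.5 FPKM in sgNC, a call that ended with the second length correction.

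IGF1R and INSR, the receptors of insulin-like growth factors and insulin, fell by nearly the same proportion. IGF1R (ENSG00000140443, chromosome 15, 98648539 to 98964530, plus strand) was at 5.74, 5.50 and 6.15 FPKM in sgOTUD1, against 8.95, 9.36 and 9.07 FPKM in sgNC (log2 fold change -0.58, SE 0.049, limma adjusted p = 9.01e-05). INSR (ENSG00000171105, chromosome 19, 7112255 to 7294034, minus strand) was at 1.51, 1.34 and 1.57 FPKM in sgOTUD1, against 2.51, 2.46 and 2.16 FPKM in sgNC (log2 fold change -0.45, SE 0.073, limma adjusted p = 0.00183). No library of either group reached the range of the other for these genes. The mean FPKM in sgOTUD1 was 0.635 of that in sgNC for IGF1R and 0.622 for INSR. The ratio of IGF1R to INSR FPKM was 3.80, 4.09 and 3.91 in sgOTUD1 and 3.57, 3.80 and 4.21 in sgNC, so its groups overlapped (exact permutation p = 0.9). These are long genes, with exon lengths of 13941 and 10451 bases, and the first length correction left log2 fold changes of -0.37 for IGF1R (limma adjusted p = 0.000826) and -0.30 for INSR (limma adjusted p = 0.00981). Values per gene do not separate the splice forms of INSR.

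The ligands INS, IGF1 and IGF2 were at 0 in every library. Of 19 genes for ligands, binding proteins and substrates of the insulin and IGF receptors, 10 were tested, of which 5 rose and 3 fell, with a median log2 fold change of 0.31; after the first length correction 5 rose and 1 fell, with a median of 0.11. The docking proteins moved apart. IRS2 rose to 20.3 ± 0.73 FPKM in sgOTUD1, against 10.4 ± 0.38 FPKM in sgNC (SD, n = 3 each; log2 fold change 0.90, limma adjusted p = 1.05e-05). IRS1 fell to 2.09 FPKM, against 2.84 FPKM in sgNC, and GRB10, an adaptor that restrains these receptors, fell to 2.31 FPKM, against 3.10 FPKM in sgNC. Both falls lost their call with the first length correction (limma adjusted p = 0.0607 for IRS1 and 0.0562 for GRB10). The secreted IGF-binding protein genes IGFBP3 (116 FPKM in sgOTUD1 and 74.0 FPKM in sgNC) and IGFBP7 (149 and 101 FPKM) rose. IGF2R, which clears IGF2 and sorts lysosomal enzymes, fell to 7.53 FPKM, against 14.6 FPKM in sgNC (log2 fold change -0.87, limma adjusted p = 1.19e-05, and -0.62 after the first length correction).

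EPHA2 (ENSG00000142627, chromosome 1, 16124337 to 16156087, minus strand), a receptor of membrane-bound ephrin-A ligands with roles in cell contact and migration, was at 79.3, 85.2 and 82.2 FPKM in sgOTUD1, against 39.5, 41.6 and 40.4 FPKM in sgNC. The lowest sgOTUD1 library was thus far above the highest sgNC library. The log2 fold change was 1.00 (SE 0.039, 95% interval 0.91 to 1.09, limma adjusted p = 5.42e-06), from 5491 to 5751 reads per library in sgOTUD1 and 2913 to 3114 in sgNC. It was 0.92 after the first length correction and 0.85 after the second. On the log2(FPKM + 1) scale, 315 of the 14658 tested genes, or 2.15%, rose by as much or more.

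Of the ephrin-A ligands of EPHA2, EFNA1 rose under each alternative and EFNA3, EFNA4 and EFNA5 did not. EFNA1, a main partner of EPHA2, rose to 45.7 ± 3.4 FPKM in sgOTUD1, against 24.7 ± 0.64 FPKM in sgNC (SD, n = 3 each; log2 fold change 0.86, limma adjusted p = 3.17e-05). EFNA4 rose to 13.1 FPKM, against 8.77 FPKM in sgNC, a call that ended when the second length correction was made (0.13, limma adjusted p = 0.157). EFNA3 was at 8.85 ± 1.6 FPKM in sgOTUD1 and 5.94 ± 0.80 FPKM in sgNC, with a limma adjusted p of 0.022 that became 0.141 after the first length correction and 0.0518 to 0.0684 without any of 4 libraries. EFNA5 was at 3.88 and 3.63 FPKM (limma adjusted p = 0.526). EFNA2 was under the filter, at 0.021 FPKM in sgOTUD1 and 0 FPKM in sgNC.

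Of the 6 other EPH receptors tested, 1 rose and 3 fell. EPHB3 rose to 4.12 FPKM in sgOTUD1, against 2.19 FPKM in sgNC, while EPHB4 (33.6 and 38.6 FPKM), EPHB2 (3.47 and 4.80 FPKM) and EPHA1 (14.6 and 17.5 FPKM) fell. Of the ephrin-B ligands, EFNB2 fell to 6.68 FPKM, against 8.43 FPKM in sgNC. EFNB1 rose to 98.7 FPKM, against 83.9 FPKM in sgNC (log2 fold change 0.23, limma adjusted p = 0.00796), and lost its call with median-ratio rescaling, TPM and both length corrections. EPHA1 and EFNB1 are named here after their values were seen. In the whole list of 21 ephrins and other EPH receptors, 12 were tested, 5 rose and 4 fell (3 rose with median-ratio rescaling), with a median log2 fold change of 0.12, and 4 of the 5 that rose are ephrins. EPHA2 made up 55.3%, 56.6% and 56.5% of the summed FPKM of EPH receptors in sgOTUD1, against 36.3%, 37.1% and 35.2% in sgNC, with no overlap (exact permutation p = 0.1, the smallest possible).

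DDR1 (ENSG00000204580, chromosome 6, 30876421 to 30900156, plus strand), which binds collagen and is a typical epithelial receptor, changed least among the called receptors. It was at 88.3, 90.6 and 90.0 FPKM in sgOTUD1, against 97.8, 98.5 and 104.7 FPKM in sgNC. The groups did not overlap, and the log2 fold change was -0.16 (SE 0.036, limma adjusted p = 0.00804). The first length correction left -0.045 (limma adjusted p = 0.364) and the second -0.061 (limma adjusted p = 0.21), so DDR1 was not called relative to genes of its exon length. That length, 9122 bases, counts all annotated exons of its 58 transcripts, and a correction by transcript length was not made. DDR2, the other collagen receptor of the family, was at 0.036 FPKM in sgOTUD1 and 0.030 FPKM in sgNC.

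**Figure D3:**
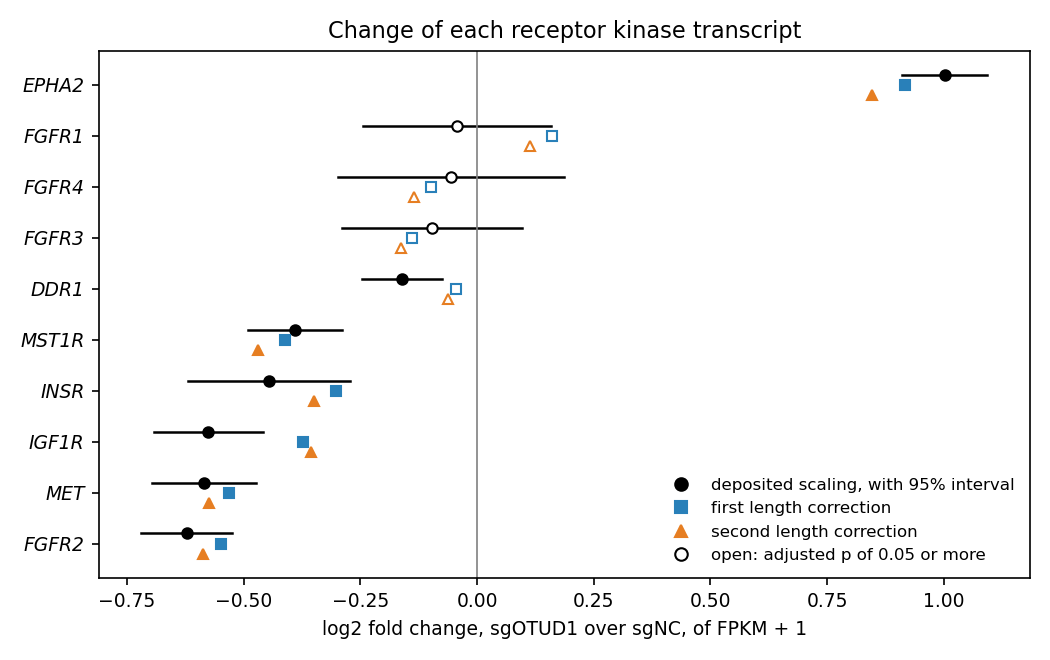
Log2 fold change of each receptor kinase (sgOTUD1 over sgNC, FPKM + 1) with the deposited scaling (black circles, bars are 95% intervals) and after the first (blue squares) and second (orange triangles) length correction; open symbols did not pass an adjusted p of 0.05. EPHA2 stays between 0.85 and 1.00, FGFR2, MET, MST1R, IGF1R and INSR stay called and lower, and DDR1 is called only with the deposited scaling among these 3.

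The order of the receptors by level changed at the top. In sgOTUD1, DDR1 (89.6 FPKM), EPHA2 (82.2 FPKM) and MET (44.7 FPKM) led in that order, and in sgNC MET (67.5 FPKM) stood between DDR1 (100.3 FPKM) and EPHA2 (40.5 FPKM). None of these neighbours overlapped in either group. FGFR2 and MST1R followed, and overlapped in sgOTUD1, where MST1R had the higher mean, but not in sgNC, where FGFR2 had. IGF1R came next in both groups. The 4 lowest were FGFR4, FGFR1, INSR and FGFR3 in sgOTUD1, where FGFR1, INSR and FGFR3 overlapped as neighbours, and FGFR4, INSR, FGFR1 and FGFR3 in sgNC, where FGFR4 and INSR overlapped. FPKM here is per base of all annotated exons, which lowers the level of genes with many alternative exons, such as FGFR1 with 43 transcripts and DDR1 with 58.

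With the deposited scaling, the summed FPKM of the 10 receptors was 249 ± 2.5 in sgOTUD1 and 255 ± 2.7 in sgNC (SD, n = 3 each, exact permutation p = 0.2), while its make-up moved. The FPKM of all genes added up to 292861 to 299871 per sgOTUD1 library and 265707 to 270416 per sgNC library. Relative to that total, as with TPM, the receptor sum was lower in sgOTUD1, so it cannot be read as unchanged. EPHA2 made up 33.0% ± 0.91 of the receptor sum in sgOTUD1 and 15.9% ± 0.30 in sgNC. MET made up 17.9% ± 0.91 in sgOTUD1 and 26.5% ± 1.1 in sgNC. DDR1 made up 36.0% ± 0.34 in sgOTUD1 and 39.4% ± 1.3 in sgNC. The ratio of EPHA2 to MET FPKM was 1.84 ± 0.13 in sgOTUD1 and 0.600 ± 0.022 in sgNC. Each of these 3 shares and this ratio had groups that did not overlap, with an exact permutation p of 0.1, the smallest possible; 13 such sums, shares and ratios were computed, and none can pass 0.05 in this design.

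**Figure D4:**
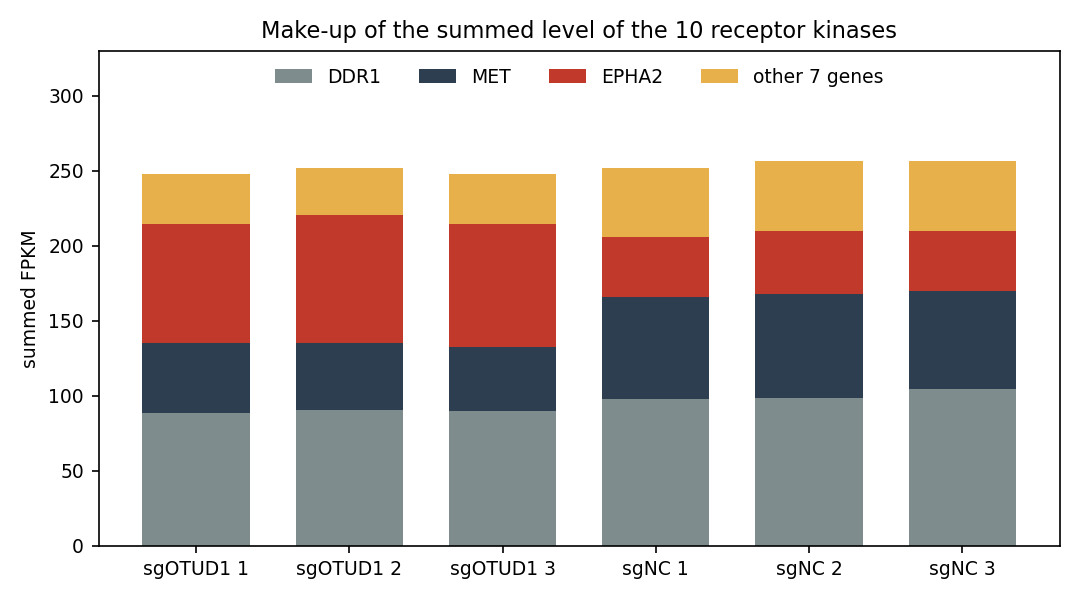
Summed FPKM of the 10 receptor kinases in each library, split into DDR1, MET, EPHA2 and the other 7 genes, with the 3 sgOTUD1 libraries left of the 3 sgNC libraries. With the deposited scaling the totals run from 248 to 252 in sgOTUD1 and 252 to 257 in sgNC, and the EPHA2 part is larger and the MET part smaller in sgOTUD1.

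Among 57 receptor tyrosine kinase genes, 29 were tested, the 10 above and 19 others. Of the 19 others, 3 rose and 10 fell, with a median log2 fold change of -0.19 (-0.16 after the first length correction, when 4 rose and 10 fell). Decreases thus outnumbered increases among the 19 others as among the 10, and the difference between these groups of genes was not tested. Of all tested genes 31.2% were called higher and 24.7% lower. In the bin of longest genes, where 4 of the 10 lie, these shares were 14.3% and 48.7%, so more decreases than increases are not particular to receptors. EGFR, which had the highest mean of the receptor kinases in both groups (overlapping with DDR1 in sgOTUD1), fell to 93.8 ± 4.4 FPKM in sgOTUD1, against 187 ± 1.0 FPKM in sgNC (SD, n = 3 each; log2 fold change -0.99, limma adjusted p = 5.79e-06). AXL (42.7 FPKM in sgOTUD1 and 65.8 FPKM in sgNC) and ERBB3 (4.06 and 6.72 FPKM) fell by amounts close to those of FGFR2 and MET. Beside EPHA2 and EPHB3, AATK rose to 1.55 FPKM in sgOTUD1, against 0.640 FPKM in sgNC. RYK, a WNT co-receptor, rose to 15.6 FPKM, against 13.4 FPKM in sgNC, and lost its call with median-ratio rescaling (0.071) and TPM (0.062). On the log2(FPKM + 1) scale, EPHA2 had the highest fold change of the 29, and EGFR the lowest. In plain FPKM, AATK rose by a larger proportion than EPHA2. CSF1R (0.429 FPKM in sgOTUD1 and 1.14 FPKM in sgNC) likewise fell by a larger proportion than EGFR. The summed FPKM of all 57 genes was 540 ± 7.9 in sgOTUD1 and 684 ± 10.3 in sgNC, and the 10 receptors described here made up 46.1% ± 0.42 and 37.2% ± 0.33 of it.

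**Figure D5:**
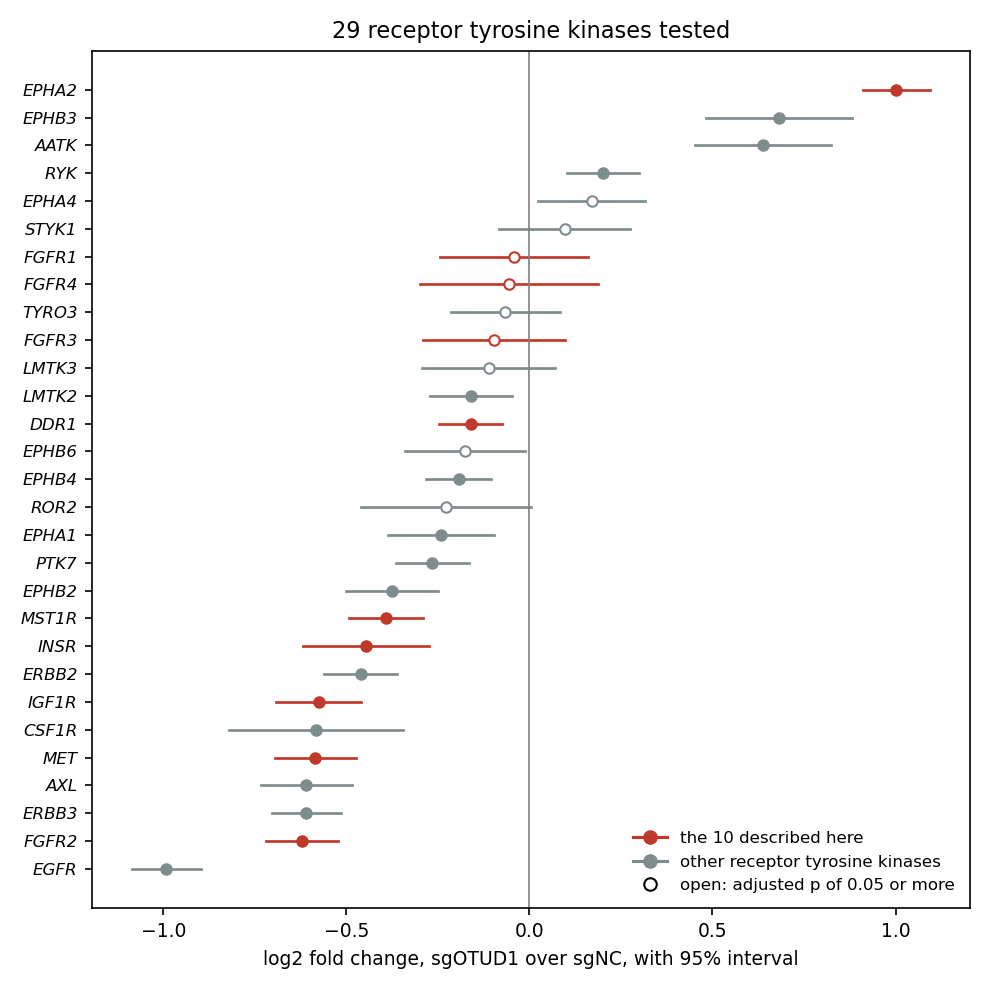
Log2 fold change (sgOTUD1 over sgNC, FPKM + 1) with its 95% interval for the 29 receptor tyrosine kinase genes tested, the 10 described here in red and the 19 others in grey. Open circles did not pass an adjusted p of 0.05. EPHA2 lies at the top at 1.00 and EGFR at the bottom at -0.99, with most of the others below 0.

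Of 31 genes for adaptors and effectors of these receptors, 26 were tested, 5 rose and 8 fell, with a median log2 fold change of -0.06; with TPM the split was 2 and 14. GRB7, an adaptor of ERBB and EPH receptors, rose to 61.2 FPKM in sgOTUD1, against 35.6 FPKM in sgNC (log2 fold change 0.76, limma adjusted p = 2.34e-05). NCK1, an adaptor to the actin machinery, rose to 9.61 FPKM, against 7.04 FPKM in sgNC. SH2B2, an insulin receptor adaptor, rose to 6.25 FPKM, against 4.84 FPKM in sgNC, but not after length correction (limma adjusted p = 0.328) or with TPM. The RAS exchange factor SOS1 fell to 3.58 FPKM, against 6.05 FPKM in sgNC (log2 fold change -0.62, limma adjusted p = 5.58e-05). The exchange factor VAV2 (8.67 FPKM in sgOTUD1 and 12.2 FPKM in sgNC) and the phosphatase PTPN11, or SHP2 (19.9 and 24.6 FPKM), which carries receptor signals to RAS, fell as well.

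Of 26 genes for maturation, shedding and down-regulation of receptors, 25 were tested, 4 rose and 10 fell, with a median log2 fold change of -0.15; 6 rose and 5 fell after the first length correction, where the median was 0.025. CBL, a ubiquitin ligase that sends MET and other receptors to the lysosome, fell to 5.23 ± 0.26 FPKM in sgOTUD1, against 8.75 ± 0.39 FPKM in sgNC (SD, n = 3 each; log2 fold change -0.65, limma adjusted p = 6.82e-05). The receptor phosphatases PTPRF (53.8 FPKM in sgOTUD1 and 82.6 FPKM in sgNC), which acts on the insulin receptor, and PTPRG (2.34 and 3.59 FPKM) fell. FURIN, the protease that cleaves the precursors of MET, IGF1R and INSR, named here after its values were seen, fell to 9.44 FPKM, against 12.1 FPKM in sgNC (limma adjusted p = 0.0027). PTPN2, a phosphatase of INSR and other receptors, rose to 11.9 FPKM, against 9.38 FPKM in sgNC, and lost its call with TPM (limma adjusted p = 0.072). PTPN1, or PTP1B, which acts on INSR and IGF1R, rose to 62.4 FPKM, against 53.4 FPKM in sgNC, and lost its call with median-ratio rescaling, TPM and the second length correction. The CBL relative CBLC was at 22.6 and 17.1 FPKM, a rise that was not called after length correction (limma adjusted p = 0.0979).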

How the data were processed

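The deposited table holds FPKM values per gene and library, per the file headers. Build hg38, DESeq2 1.20.0 and featureCounts 1.5.0-p3 are named in the submitters' processing notes. Which aligner, annotation and strandedness were used is not given in the sources. All 58735 gene IDs were found in GENCODE 29, and FPKM times exon length gave whole reads for 100% of values above 0 (tolerance 0.001). Per-gene counts vary by more than sampling noise between replicates (chi-square per gene 2.06 to 3.75 within groups and 61.0 to 70.8 between them), so no library was a copy of another.

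The test was limma 3.58.1 (trend and robust options, R 4.3.3) on log2(FPKM + 1) for the 14658 genes whose mean FPKM reached 0.5, sgOTUD1 minus sgNC, 3 libraries each, with Benjamini-Hochberg adjustment over all of them and a threshold of 0.05. It was also run on simulated counts of fixed dispersion, with changes set in a small part of the genes. These settings differ from the present libraries, so that run does not give their rate of false calls. Single sums, shares and ratios had two-sided exact permutation tests (SciPy 1.17.1), which cannot go below 0.1 here. The first length correction subtracts a per-library spline (4 degrees of freedom) on log2 exon length, and the second divides it out of FPKM after estimation on genes at 5 FPKM or more. The other alternatives were a replicate block, leaving out each library, other filters, scalings and offsets, plain limma, a threshold of 0.01 and limma-voom on the recovered reads. Limma-voom took the recovered scale of each library as its size, so it keeps the deposited scaling. Named genes were the 10 receptors, OTUD1, every tested ligand of those receptors, and from each list up to 3 genes called higher and 3 lower with the smallest adjusted p. The receptors and lists were chosen with earlier results of these data known. Values cover counting and replicate error of these libraries only.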

Additional observations from a re-analysis of the deposited data

How the results depend on the processing

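Under 17 alternatives the calls of EPHA2 (0.85 to 1.03), FGFR2 (-0.81 to -0.55), MET (-0.74 to -0.53), MST1R (-0.56 to -0.36), IGF1R (-0.78 to -0.36) and INSR (-0.73 to -0.30, not tested at 5 FPKM or more) held, and DDR1 (-0.31 to -0.045) lost its call with both length corrections. The receptors called lower were thus 5 there and at 5 FPKM or more. FGFR1, not called, reached 0.0105 without sgOTUD1 replicate 2 (-0.11 to 0.0105 over the left-out libraries), and 0.16 and 0.11 with the length corrections. FGFR4, not called, reached 0.034 without sgOTUD1 replicate 3 (-0.16 to 0.034 over the left-out libraries). OTUD1 lost its call with median-ratio rescaling (0.071), TPM (0.061), a threshold of 0.01 (0.20), the length corrections (0.025 and -0.045), and without sgOTUD1 replicate 2 or sgNC replicate 1 (0.17 to 0.24 over the left-out libraries). FGFBP1 reached -0.068 with the second length correction, and EFNA5, not called, -0.034 with median-ratio rescaling and -0.052 with TPM. The cause of these changes was not tested. Of all genes, 1757 were called lower at 5 FPKM or more, where 7047 genes were tested, against 3615. Among the lists, the FGF genes had 2 called higher without sgOTUD1 replicate 1, 0 with both length corrections, 2 lower with no filter and 0 lower at 5 FPKM or more. Insulin and IGF genes had 1 lower at 5 FPKM or more and with the first length correction. Ephrins and EPH receptors had 3 higher with median-ratio rescaling and the second length correction. Other receptor kinases had 1 higher at 5 FPKM or more, with median-ratio rescaling and with TPM. Adaptors had 3 higher with median-ratio rescaling and a threshold of 0.01, 2 higher and 14 lower with TPM, and 5 lower at 5 FPKM or more. Maturation and down-regulation genes had 2 higher with median-ratio rescaling, 1 with TPM and 7 with limma-voom, and 6 lower without sgOTUD1 replicate 3, and 5 lower with a threshold of 0.01 and the first length correction. For the 43 other named genes, 688 values kept direction and call, 30 lost the call and 3 reversed. Deviations of same-numbered libraries from their group means, over genes at 5 FPKM or more, correlated at 0.103, -0.0858 and 0.0824, so the numbers were not taken as pairs. With the replicate block 1 receptor was called higher and 6 lower, and 4431 genes were higher and 3360 lower, against 4577 and 3615. Limma-voom on the recovered reads called 4856 genes higher and 4019 lower. FGFR3 had the fewest reads, 98 to 140 per library.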
